A study of Homo sapiens with 6 samples.

Results

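The 42 genes described here encode proteins of mitosis: the kinase and cyclins that start it, the checkpoint and the machinery of anaphase, kinetochores and centromeres, the spindle, the cleavage furrow and mitotic chromosomes. They were chosen by symbol from a list of genes expressed in G2 and M phase, kinesins named KIF aside, and all 42 were found among the 17646 genes listed in each library. Every one of them also passed the filter of a mean of at least 1 FPKM (fragments per kilobase of transcript, normalized to library size) that left 12003 genes for testing. The rule itself used the symbols alone.

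RNA was sequenced from MDA-MB-231, an established human triple negative breast cancer cell line, after transfection with an siRNA against USP32 (siUSP32, 3 libraries) or a control siRNA (siControl, 3 libraries). USP32 is a deubiquitinating enzyme, and both groups were collected 48 h after transfection. The comparison asked which transcripts differed when USP32 was depleted. Whether the libraries within each group stem from independent cultures is not stated in the labels, and the p-values therefore reflect library-to-library spread, possibly of technical origin only.

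Mitosis starts when cyclin-dependent kinase 1 is activated by cyclins and by CDC25 phosphatases. Aurora and Polo-like kinases then build the spindle and correct its attachments to kinetochores, the protein assemblies on centromeres. The spindle checkpoint holds the anaphase-promoting complex inactive until every kinetochore is attached, after which securin and cyclins are degraded, sister chromatids separate and the cell divides. Transcripts of most of these proteins accumulate in G2 and M, through promoter elements called the cell cycle genes homology region (CHR) and the CCAAT box, so their abundance in a culture also follows the share of its cells in those phases. In bulk RNA, a different share of cells in G2 and M and a different amount of RNA per cell cannot be told apart.

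The targeted gene, USP32, had 2.0, 1.88 and 2.01 FPKM in the siUSP32 libraries, against 7.50, 7.48 and 8.32 FPKM in the siControl libraries. It was 3.96-fold lower (log2 difference −1.56 ± 0.07 SE, limma adjusted p = 8.57e-08). Of the markers fixed for the line, VIM, KRT8 and KRT18 were at 1077 FPKM or more in every library and ESR1 and CDH1 at no more than 0.63 FPKM. CD44 had 131 to 138 FPKM in siUSP32 libraries and 423 to 426 in siControl libraries, and EGFR 6.31 to 7.92 FPKM in siUSP32 libraries and 36.95 to 38.9 in siControl libraries. ERBB2 and EPCAM were at 3.54 to 4.85 FPKM in siUSP32 libraries and 9.61 to 12.2 in siControl libraries. Of the 7 line markers that passed the filter, 1 was higher and 4 lower in siUSP32, with a median log2 difference of −1.13. Among 8 listed markers of other cells, PTPRC, CD3E, ALB and VWF were at no more than 0.05 FPKM, and the sum of all 8, mostly CD68 and KRT14, was 27.7 to 34.8 FPKM in siUSP32 libraries and 43.2 to 45.2 in siControl libraries. Their part in the results was not tested. The summed FPKM over all genes was 855573 to 948641 in siUSP32 libraries and 686376 to 694831 in siControl libraries, while the median gene had 3.59 to 3.88 FPKM in siUSP32 libraries and 5.14 to 5.23 in siControl libraries. Read depth is unknown, because FPKM was deposited without counts. With such unequal totals, the direction of small differences can depend on how libraries are scaled.

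Mitotic genes went in both directions. Of the 42, 18 rose in siUSP32 cells (42.9%) and 12 fell (28.6%), while 12 did not pass limma's adjusted p threshold of 0.05. The background was 33.3% of all tested genes higher and 41.3% lower, so calls in both directions were common among expressed genes, and the gap between these shares was not tested. The members' median log2 difference was 0.09, against −0.06 for all genes tested. The background itself changed with the level of the genes. With a minimum mean of 5 FPKM, which all 42 members passed, 18 were again higher and 12 lower. Of the 8645 genes then tested, 41.4% were higher and 35.5% lower, with a median of 0.045. The members' differences ranged from −0.94 for MKI67, the gene of the proliferation antigen Ki-67, to 1.21 for AURKB, the Aurora B kinase. The siUSP32 and siControl values did not overlap for 34 members, of which 20 lay above and 14 below. That too was common, since 77.8% of all tested genes had groups that did not overlap.

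The genes were among the more abundant transcripts in every library. Their median was 48.8, 45.7 and 49.97 FPKM in the siUSP32 libraries, against 41.0, 39.0 and 38.9 FPKM in the siControl libraries. Their summed FPKM was 4813, 4866 and 4775 in the siUSP32 libraries and 3551, 3523 and 3622 in the siControl libraries. As a share of each library's total FPKM, the sum was 0.551%, 0.513% and 0.558% with siUSP32, against 0.517%, 0.513% and 0.521% with siControl, and here the groups overlapped. Library 2 of siUSP32 held the lowest of the 3 siUSP32 values for 29 of the 42 genes, and its FPKM total was the highest of the 6. Its median over all listed genes, 3.59 FPKM, was also the lowest of the 6. The share of all genes with their lowest siUSP32 value there was not computed.

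**Figure D1:**
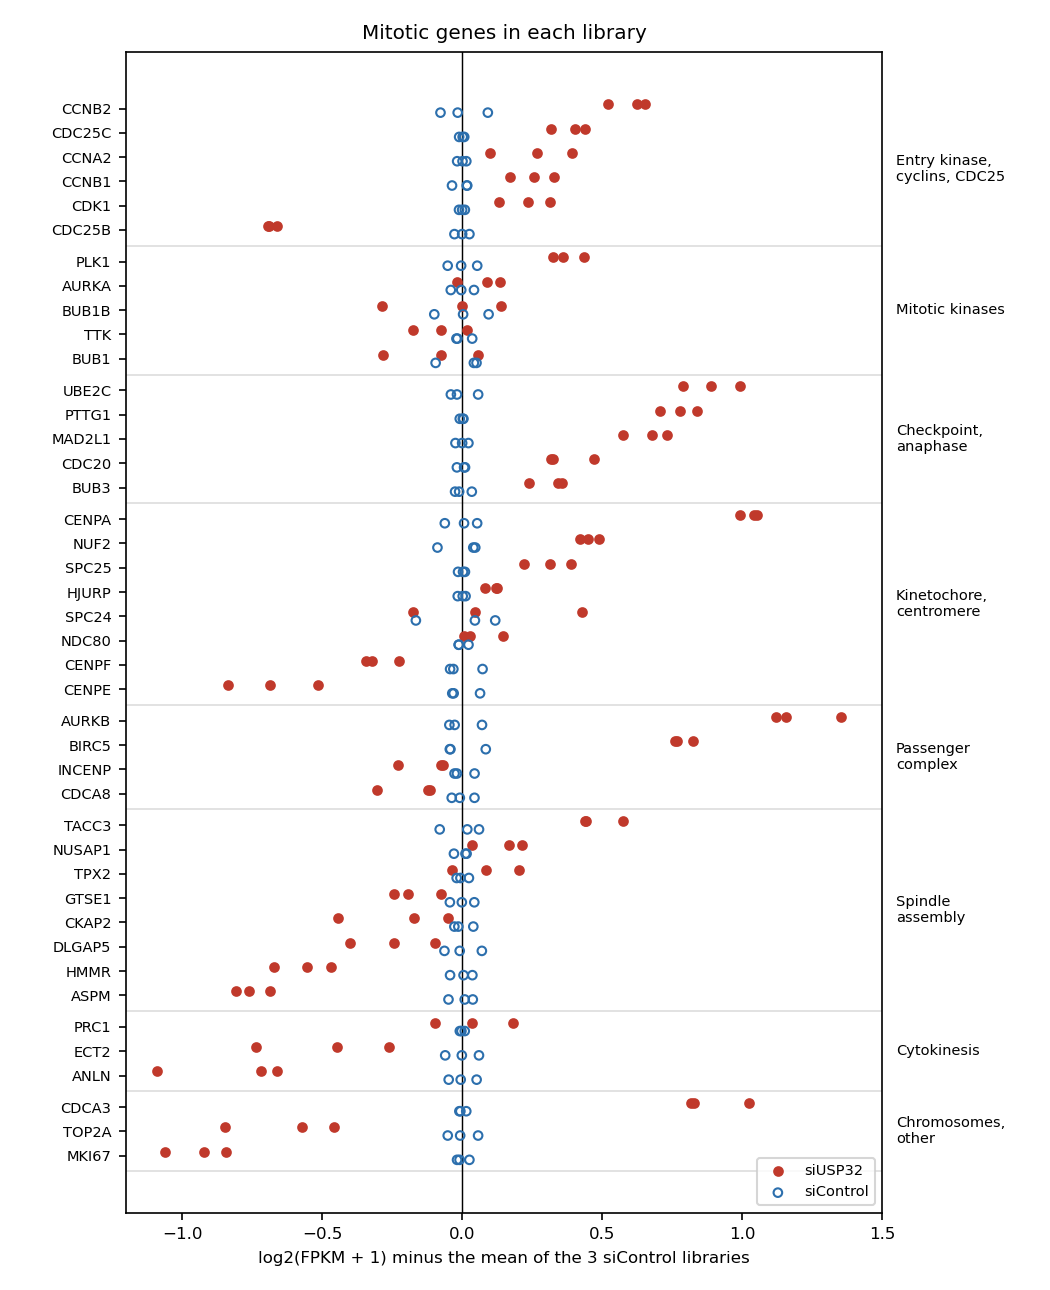
Values of each mitotic gene in each library, as log2(FPKM + 1) minus the mean of the 3 siControl libraries (horizontal axis), with genes down the page grouped by role. Filled red points are siUSP32 libraries and open blue points siControl libraries; AURKB lies farthest right and MKI67 and ANLN farthest left, while 8 genes such as BUB1B and PRC1 have groups that overlap.

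Promoters are shown because many of the genes share regulatory elements that the choice by name did not use. Those printed belong to genes that rose and genes that fell, and how alike they are was not measured. RefSeq promoters on build GRCh38.p14, from 250 bases before to 50 bases after the start, were found for 36 of the 42 genes, with 46 promoters in all. No entry was matched for AURKA, BIRC5, BUB3, TPX2, TTK and UBE2C. In the 150 bases before the start printed here, capitals mark each CHR match (TTTGAA or TTCGAA, or its reverse complement TTCAAA) and each CCAAT match (CCAAT or its reverse complement ATTGG). CCNB2 (chr15:59104996-59105145, plus strand) and CENPA (chr2:26785906-26786055, plus strand) belong to genes that rose, and HMMR (chr5:163460482-163460631, plus strand) and MKI67 (chr10:128126424-128126573, minus strand) to genes that fell.
CCNB2: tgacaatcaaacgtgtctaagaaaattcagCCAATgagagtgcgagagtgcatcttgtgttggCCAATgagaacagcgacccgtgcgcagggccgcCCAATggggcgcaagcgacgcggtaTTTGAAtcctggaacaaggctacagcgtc
CENPA: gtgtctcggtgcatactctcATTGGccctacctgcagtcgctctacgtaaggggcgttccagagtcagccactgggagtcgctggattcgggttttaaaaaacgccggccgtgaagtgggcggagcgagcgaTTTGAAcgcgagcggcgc
HMMR: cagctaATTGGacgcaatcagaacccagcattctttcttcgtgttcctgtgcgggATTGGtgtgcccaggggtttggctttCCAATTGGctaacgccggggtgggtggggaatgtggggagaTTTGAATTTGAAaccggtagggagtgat
MKI67: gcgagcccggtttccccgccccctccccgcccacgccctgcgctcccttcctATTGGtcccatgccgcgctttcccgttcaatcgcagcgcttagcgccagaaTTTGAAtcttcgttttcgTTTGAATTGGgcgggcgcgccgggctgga
The CCNB2 window held 1 CHR match and 3 CCAAT matches, and the CENPA window 1 of each. The HMMR window held 2 CHR and 4 CCAAT matches, with a pair of CCAAT matches on opposite strands sharing bases. The MKI67 window held 2 of each, with a CHR match that shares bases with a CCAAT match.

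Over the full windows of 300 bases, 31 of the 46 promoters of mitotic genes held a CHR match (67.4%), against 11.7% of 14252 promoters of tested genes and 16.4% of all 35116 promoters. CCAAT matches were in 34 of the 46 (73.9%), against 34.7% of promoters of tested genes and 34.6% of all promoters. Both motifs were in 26 (56.5%), against 4.85% of promoters of tested genes and 6.38% of all promoters. Genes that rose and genes that fell both carried them. A CHR match was in 12 of 21 promoters of genes that rose (57.1%), 12 of 16 of genes that fell (75%) and 7 of 9 of genes not called (77.8%). A CCAAT match was in 17 of 21 promoters (81.0%), 11 of 16 (68.8%) and 6 of 9 (66.7%) of the same groups. A match of letters is a description of the window and not a bound site.

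In the values as deposited, genes for mitotic entry other than CDC25B rose. Of the 6 (CDK1, cyclins A2, B1 and B2, and the phosphatases CDC25B and CDC25C), 5 rose (83.3%) and 1 fell (16.7%). The shares to set beside this group and those below are 33.3% higher and 41.3% lower of all tested genes. On TPM, with each library rescaled to the same sum, the counts of the 6 were 1 and 1, since only CCNB2 then passed as higher. Of all tested genes, 14.3% were higher and 62.1% lower on TPM. CCNB2, cyclin B2, an activator of CDK1, had 100.9, 91.9 and 98.8 FPKM in siUSP32 libraries, against 63.0, 60.4 and 68.0 FPKM in siControl libraries. All siUSP32 values lay above all siControl values, and the mean was 1.52-fold higher (log2 difference 0.60 ± 0.06 SE, limma adjusted p = 1.89e-05; 0.23 on TPM and 0.30 after length correction). CDC25C, which removes inhibitory phosphates from CDK1, had 16.3, 14.9 and 15.9 FPKM in siUSP32 libraries, against 11.8, 11.7 and 11.9 FPKM in siControl libraries. The groups were apart, by 0.39 ± 0.06 (SE) on the log2 scale (limma adjusted p = 2.36e-04), and by 0.04 on TPM. Its gene shares 6421 bases with FAM53C on the opposite strand, and how the authors' counting treats strand is not given in the sources used here.

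CDC25B, a phosphatase that acts on CDK1 early in mitotic entry, moved against its family member. It had 77.6, 79.1 and 77.3 FPKM in siUSP32 libraries, against 128, 123 and 126 FPKM in siControl libraries (chromosome 20, 3786772 to 3806121, plus strand, GRCh38). The siUSP32 values were tight and far below every siControl value, 1.61-fold lower on average (log2 difference −0.68 ± 0.04 SE, limma adjusted p = 1.00e-06). On TPM, quantile normalization and length correction the difference was −1.05, −0.89 and −0.53. CDK1 itself averaged 121 ± 7.68 FPKM in siUSP32 libraries and 103 ± 0.717 FPKM in siControl libraries (SD, n = 3 each), a log2 difference of 0.23 ± 0.06 (SE, limma adjusted p = 0.00452) that was −0.14 on TPM and −0.01 after quantile normalization. Cyclin B1 (CCNB1), its main mitotic partner, averaged 324 ± 17.6 FPKM in siUSP32 libraries and 272 ± 5.80 FPKM in siControl libraries, a difference of 0.25 that was −0.12 on TPM and −0.06 after quantile normalization. Cyclin A2 (CCNA2), which acts in S phase and G2, differed by 0.25 and, on TPM, by −0.11. The direction of CDK1, CCNB1 and CCNA2 thus depended on the scaling.

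Of the 6 mitotic kinases, AURKB, described with its complex, and PLK1 rose, and 4 were not called. PLK1, the Polo-like kinase of centrosome maturation and mitotic entry, had 157, 169 and 160 FPKM in siUSP32 libraries, against 130, 120 and 124 FPKM in siControl libraries. Every siUSP32 value exceeded every siControl value, by 0.37 ± 0.05 (SE) on the log2 scale (limma adjusted p = 1.40e-04), but the TPM difference was 0.005 and that after quantile normalization 0.12. AURKA, Aurora A, which builds spindle poles, averaged 110 ± 6.04 FPKM in siUSP32 libraries and 105 ± 3.05 FPKM in siControl libraries, and the groups overlapped (log2 difference 0.07, 95% interval −0.05 to 0.19). On TPM and after quantile normalization AURKA passed as lower, at −0.30 and −0.16, and after median-ratio scaling as higher, at 0.21. The checkpoint kinases TTK, BUB1 and the related BUB1B also had overlapping groups. TTK differed by −0.08 (95% interval −0.21 to 0.06), BUB1 by −0.10 (−0.30 to 0.10) and BUB1B by −0.05 (−0.28 to 0.19) on the log2 scale. On TPM all 3 passed as lower, at −0.44, −0.46 and −0.41 in the same order. After median-ratio scaling they stood at 0.06, 0.03 and 0.08, none of them called, and with the median coding transcript for length TTK and BUB1B passed as higher, at 0.11 and 0.21. BUB1B lies over a read-through gene, BUB1B-PAK6, on the same strand, so its reads may have been split.

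The 5 remaining genes of the checkpoint and of anaphase onset all rose, with a median log2 difference of 0.66. Of these 5, 3 passed as higher on TPM (MAD2L1, PTTG1 and UBE2C) and the same number after quantile normalization. UBE2C, the ubiquitin-conjugating enzyme that starts chains for the anaphase-promoting complex, was the most abundant of all 42. It had 1299, 1395 and 1213 FPKM in siUSP32 libraries, against 682, 692 and 730 FPKM in siControl libraries (chromosome 20, 45812576 to 45816957, plus strand). The groups lay far apart, 1.86-fold on average (log2 difference 0.89 ± 0.06 SE, limma adjusted p = 1.86e-06), and the difference was 0.52 on TPM, 0.33 after quantile normalization and 0.37 after length correction. PTTG1, securin, the inhibitor of the protease that cuts cohesin, had 891, 930 and 848 FPKM in siUSP32 libraries, against 521, 516 and 520 FPKM in siControl libraries. It was 1.71-fold higher in siUSP32 (log2 difference 0.77 ± 0.05 SE, limma adjusted p = 1.15e-06) and 0.40 higher on TPM, 0.23 after quantile normalization and 0.31 after length correction. PTTG1 has near-identical retrocopies, and how reads shared with them were counted is not given in the sources used here.

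MAD2L1 encodes MAD2, the checkpoint protein that binds and inhibits CDC20 at unattached kinetochores. It had 59.6, 53.3 and 57.3 FPKM in siUSP32 libraries, against 34.9, 35.5 and 36.0 FPKM in siControl libraries, with no overlap between groups. It was 1.60-fold higher in siUSP32 (log2 difference 0.66 ± 0.05 SE, limma adjusted p = 5.41e-06), and 0.30 higher on TPM. After length correction the difference was 1.02, or 1.10 with the median coding transcript. CDC20, the activator of the complex that MAD2 inhibits, had 210, 234 and 211 FPKM in siUSP32 libraries, against 169, 170 and 166 FPKM in siControl libraries. This was 1.30-fold higher (log2 difference 0.37 ± 0.05 SE, limma adjusted p = 2.10e-04), while the difference was 0.002 on TPM, 0.06 after quantile normalization and 0.14 after length correction. BUB3, which brings BUB1 and BUB1B to kinetochores, averaged 137 ± 6.02 FPKM in siUSP32 libraries and 110 ± 2.43 FPKM in siControl libraries (log2 difference 0.31). On TPM it differed by −0.05, and its length-corrected difference was 0.80 with the principal transcript of 7828 bases and 0.04 with the median coding transcript of 1361 bases.

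Of 8 kinetochore and centromere genes, 3 were higher (37.5%), 2 lower (25%) and 3 not called, beside 33.3% and 41.3% of all tested genes. On TPM 1 was higher (12.5%), CENPA, and 4 were lower (50%), beside 14.3% and 62.1% of all tested genes. CENPA is the histone H3 variant that marks centromeres. It had 54.95, 55.4 and 52.97 FPKM in siUSP32 libraries, against 25.02, 27.2 and 26.3 FPKM in siControl libraries (chromosome 2, 26764289 to 26801067, plus strand). The siUSP32 values lay close together and far above every siControl value, 2.08-fold higher on average (log2 difference 1.03 ± 0.05 SE, limma adjusted p = 1.96e-07). The difference was 0.67 on TPM, 0.996 after quantile normalization and 0.70 after length correction. Its gene shares 16943 bases with SLC35F6 on the same strand in the annotation. SLC35F6 went the other way, averaging 4.39 FPKM in siUSP32 libraries and 9.72 FPKM in siControl libraries.

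HJURP, the chaperone that deposits CENPA, averaged 49.1 ± 0.837 FPKM in siUSP32 libraries and 45.5 ± 0.455 FPKM in siControl libraries and was not called (log2 difference 0.11, 95% interval 0.006 to 0.21, limma adjusted p = 0.0546). It passed as lower on TPM, at −0.26, and as higher after median-ratio scaling, at 0.25, and length correction, at 0.19. The NDC80 complex binds microtubules at the outer kinetochore, and its 4 subunits differed among themselves. NUF2 had 44.0, 44.9 and 46.1 FPKM in siUSP32 libraries, against 33.7, 30.6 and 33.5 FPKM in siControl libraries, and rose by 0.45 ± 0.06 (SE, log2 scale, limma adjusted p = 6.58e-05; 0.09 on TPM and 0.27 after length correction). SPC25 had 35.3, 37.7 and 39.8 FPKM in siUSP32 libraries, against 30.4, 30.2 and 29.8 FPKM in siControl libraries, a difference of 0.31 (limma adjusted p = 8.46e-04) that was −0.05 on TPM and −0.06 after length correction. The values of NUF2 and SPC25 did not overlap between groups, whereas those of the other subunits did. NDC80 averaged 27.7 ± 1.53 FPKM in siUSP32 libraries and 26.5 ± 0.384 FPKM in siControl libraries (log2 difference 0.06, 95% interval −0.07 to 0.19), and passed as lower on TPM, at −0.30, and as higher after median-ratio scaling, at 0.20. SPC24 had 8.65, 13.7 and 10.2 FPKM in siUSP32 libraries and 10.8, 10.3 and 8.72 FPKM in siControl libraries, with the highest value in siUSP32 library 2. Its log2 difference of 0.10 (95% interval −0.22 to 0.42) was −0.24 on TPM. SPC25 overlaps NOSTRIN and NUF2 overlaps RGS5 on the opposite strand, both partners under 1 FPKM.

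The large kinetochore proteins CENPE and CENPF fell. CENPE, a motor protein that moves chromosomes to the spindle equator, had 4.55, 4.0 and 5.24 FPKM in siUSP32 libraries, against 7.71, 7.74 and 8.33 FPKM in siControl libraries. It was 1.72-fold lower with no overlap (log2 difference −0.68 ± 0.09 SE, limma adjusted p = 1.00e-04), with −0.35 after quantile normalization and −0.17 after length correction. CENPF, a kinetochore protein that accumulates in G2, had 10.2, 10.1 and 11.01 FPKM in siUSP32 libraries, against 12.7, 12.6 and 13.8 FPKM in siControl libraries. It differed by −0.30 (limma adjusted p = 0.00234), but by 0.26 after correction for its length of 10307 bases, so its direction was set by that choice.

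The chromosomal passenger complex corrects wrong attachments and works in cytokinesis. It joins AURKB to INCENP, survivin (BIRC5) and borealin (CDCA8), and its 4 genes went separate ways, with 2 higher, 1 lower and 1 not called. AURKB had the largest rise of the 42 genes in the values as deposited, though after length correction that of MAD2L1 was larger and that of BUB3 about as large. It had 125, 143 and 122 FPKM in siUSP32 libraries, against 54.4, 53.7 and 58.3 FPKM in siControl libraries (chromosome 17, 8204733 to 8210600, minus strand). Every siUSP32 library lay far above every siControl library, 2.34-fold on average (log2 difference 1.21 ± 0.07 SE, limma adjusted p = 4.36e-07). AURKB's difference was 0.85 on TPM, 1.02 after quantile normalization and 0.80 after length correction.

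Survivin, which directs the complex to centromeres, followed AURKB. BIRC5 had 69.6, 69.9 and 72.8 FPKM in siUSP32 libraries, against 43.2, 39.5 and 39.4 FPKM in siControl libraries, 1.74-fold higher (log2 difference 0.79 ± 0.05 SE, limma adjusted p = 1.51e-06). The groups were well apart, and on TPM the difference was 0.42. INCENP, the scaffold, had 15.5, 13.7 and 15.4 FPKM in siUSP32 libraries and 15.9, 16.8 and 16.02 FPKM in siControl libraries, and was not called (log2 difference −0.12, 95% interval −0.27 to 0.02), but passed as lower on TPM, at −0.48, and as higher with the median coding transcript for length, at 0.16. CDCA8 had 34.5, 30.3 and 34.6 FPKM in siUSP32 libraries, against 38.8, 36.6 and 37.4 FPKM in siControl libraries, a fall of small size (log2 difference −0.18, limma adjusted p = 0.0277) that was not called after median-ratio scaling or without any single siControl library.

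Of 8 genes of spindle assembly, 1 rose (12.5%), 4 fell (50%) and 3 were not called, beside 33.3% higher and 41.3% lower of all tested genes. On TPM 7 were lower (87.5%), beside 62.1% of all tested genes. The gaps were not tested. ASPM holds microtubule minus ends at spindle poles. It had 5.98, 5.77 and 6.36 FPKM in siUSP32 libraries, against 10.5, 10.9 and 11.2 FPKM in siControl libraries. The groups were far apart, 1.80-fold lower in siUSP32 (log2 difference −0.75 ± 0.06 SE, limma adjusted p = 6.11e-06), with −0.47 after quantile normalization and −0.19 after correction for its length of 10887 bases. HMMR, a spindle pole protein that binds hyaluronan when outside the cell, had 24.2, 22.2 and 25.8 FPKM in siUSP32 libraries, against 36.2, 35.0 and 37.0 FPKM in siControl libraries (chromosome 5, 163460203 to 163491945, plus strand). It was 1.497-fold lower (log2 difference −0.56 ± 0.06 SE, limma adjusted p = 3.79e-05) and, being of medium length, kept −0.52 after length correction.

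TACC3, which stabilizes the microtubule bundles attached to kinetochores, was the spindle gene that rose. It had 50.5, 55.4 and 50.3 FPKM in siUSP32 libraries, against 34.8, 38.5 and 37.3 FPKM in siControl libraries (log2 difference 0.49 ± 0.06 SE, limma adjusted p = 7.66e-05; 0.12 on TPM). DLGAP5, which also stabilizes those bundles, fell by 0.25 on the log2 scale (limma adjusted p = 0.0206), and GTSE1, a microtubule-binding protein, by 0.17 (limma adjusted p = 0.0390). The GTSE1 difference was 0.04 after quantile normalization, and with the replicate number as a block it was not called (limma adjusted p = 0.0638). CKAP2, another microtubule-binding protein, averaged 41.9 ± 5.85 FPKM in siUSP32 libraries and 48.7 ± 1.24 FPKM in siControl libraries and was not called (limma adjusted p = 0.0520). CKAP2 was called lower with the block, on TPM, at −0.59, and after quantile normalization, at −0.32. TPX2, the activator of AURKA, and NUSAP1, a microtubule bundler, were not called, with log2 differences of 0.09 (95% interval −0.06 to 0.23) and 0.14 (0.008 to 0.27). Both were called lower on TPM, at −0.28 for TPX2 and −0.23 for NUSAP1, and higher after median-ratio scaling, at 0.22 and 0.28. TPX2 was also called higher after length correction, at 0.22.

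Of the 3 cytokinesis genes, 2 fell and 1 was not called. ANLN, anillin, the scaffold of the cleavage furrow, had 44.8, 34.4 and 46.7 FPKM in siUSP32 libraries, against 74.1, 71.9 and 77.1 FPKM in siControl libraries. The siUSP32 values were all lower, and library 2 lowest, with a 1.77-fold lower mean (log2 difference −0.82 ± 0.10 SE, limma adjusted p = 7.40e-05), and −0.52 after length correction. ECT2, the exchange factor that activates RhoA at the furrow, had 37.5, 30.4 and 42.8 FPKM in siUSP32 libraries, against 49.3, 51.4 and 53.6 FPKM in siControl libraries. It was 1.39-fold lower (log2 difference −0.48 ± 0.11 SE, limma adjusted p = 0.00269), with −0.22 after length correction and −0.16, not called, with the median coding transcript. PRC1, which crosslinks microtubules of the central spindle, had overlapping groups (log2 difference 0.04, 95% interval −0.12 to 0.20). It was called lower on TPM, at −0.32, and higher after median-ratio scaling, at 0.18, and with the median coding transcript for length, at 0.20.

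The chromosome proteins MKI67 and TOP2A fell, and CDCA3, a regulator outside the other groups, rose. MKI67, whose protein coats mitotic chromosomes and keeps them apart, had 8.48, 7.6 and 8.99 FPKM in siUSP32 libraries, against 16.8, 16.7 and 17.3 FPKM in siControl libraries (chromosome 10, 128096659 to 128126385, minus strand). Every siUSP32 value lay far below every siControl value, 2.03-fold lower on average (log2 difference −0.94 ± 0.07 SE, limma adjusted p = 2.32e-06), and −0.35 after correction for its length of 12678 bases, the longest of the 42. TOP2A, the topoisomerase that untangles sister chromatids, had 97.2, 80.2 and 105 FPKM in siUSP32 libraries, against 140, 144 and 151 FPKM in siControl libraries. It was 1.54-fold lower (log2 difference −0.63 ± 0.09 SE, limma adjusted p = 2.01e-04), with −0.25 after length correction and −0.17 with the median coding transcript. CDCA3, which promotes entry into mitosis, had 64.6, 74.2 and 64.1 FPKM in siUSP32 libraries, against 35.8, 36.3 and 35.7 FPKM in siControl libraries. It was 1.88-fold higher (log2 difference 0.89 ± 0.06 SE, limma adjusted p = 1.91e-06) and 0.53 higher on TPM. Its gene lies over GNB3 on the opposite strand, which averaged 0.107 FPKM in siUSP32 libraries and 0.267 FPKM in siControl libraries.

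The exact permutation test gave p = 0.1 for each of the 34 members whose groups did not overlap, the smallest value that 3 against 3 libraries allow. Of the 18 genes that rose, 8 kept call and direction in all 17 alternative settings: AURKB, BIRC5, CCNB2, CDCA3, CENPA, MAD2L1, PTTG1 and UBE2C. Of the 12 that fell, 6 did: ANLN, ASPM, CDC25B, HMMR, MKI67 and TOP2A. On TPM, CDC20, CDC25C, NUF2, PLK1 and TACC3 kept their direction but were not called. After quantile normalization that held for BUB3, CCNA2, CDC20, CENPF and DLGAP5, and after length correction for CDK1 and GTSE1. With the median coding transcript for length, BUB3, CENPE, DLGAP5, ECT2, GTSE1 and SPC25 were not called. After median-ratio scaling CDCA8, DLGAP5 and GTSE1 were not called. The calls of 3 weak falls, near the threshold with all 6 libraries, were lost when some libraries were left out. With all libraries the log2 differences of CDCA8, DLGAP5 and GTSE1 were −0.18, −0.25 and −0.17. CDCA8 was not called without siControl library 1, 2 or 3 (log2 differences of −0.16, −0.20 and −0.18), and DLGAP5 was not called without siControl library 2 or 3 or siUSP32 library 1 (−0.25, −0.21 and −0.25). GTSE1 was called lower in the absence of siUSP32 library 3 (−0.22) but not of any other library (−0.19 to −0.13). Without siUSP32 library 2, AURKA, HJURP, NUSAP1 and TPX2 were called higher, at 0.11, 0.12, 0.19 and 0.15, and without siUSP32 library 3 CKAP2 was called lower, at −0.31.

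Ratios between pairs of mitotic genes within a library do not change when the whole library is multiplied by 1 factor, as on TPM or with median-ratio scaling, but they do change with quantile normalization and length correction. The pairs were chosen after the values were seen, so they are a description without a test. AURKB stood at 8.81 ± 1.41 times the FPKM of INCENP in siUSP32 libraries and 3.42 ± 0.219 times in siControl libraries (SD, n = 3 each), and BIRC5 at 4.78 ± 0.30 times INCENP in siUSP32 libraries and 2.51 ± 0.184 times in siControl libraries. The CDCA8 to INCENP ratio was 2.23 ± 0.0215 with siUSP32 and 2.32 ± 0.128 with siControl, with overlapping groups. CENPA stood at 1.11 ± 0.0414 times HJURP in siUSP32 libraries and 0.575 ± 0.0230 times in siControl libraries. AURKB to AURKA was 1.18 ± 0.173 with siUSP32 and 0.528 ± 0.0101 with siControl, so the more abundant Aurora kinase by FPKM was B in siUSP32 libraries and A in siControl libraries. CDC25C to CDC25B was 0.202 ± 0.0115 with siUSP32 and 0.0938 ± 0.00136 with siControl. Cyclin B1 to CDK1 was 2.69 ± 0.0267 with siUSP32 and 2.64 ± 0.0405 with siControl, with overlapping groups.

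**Figure D2:**
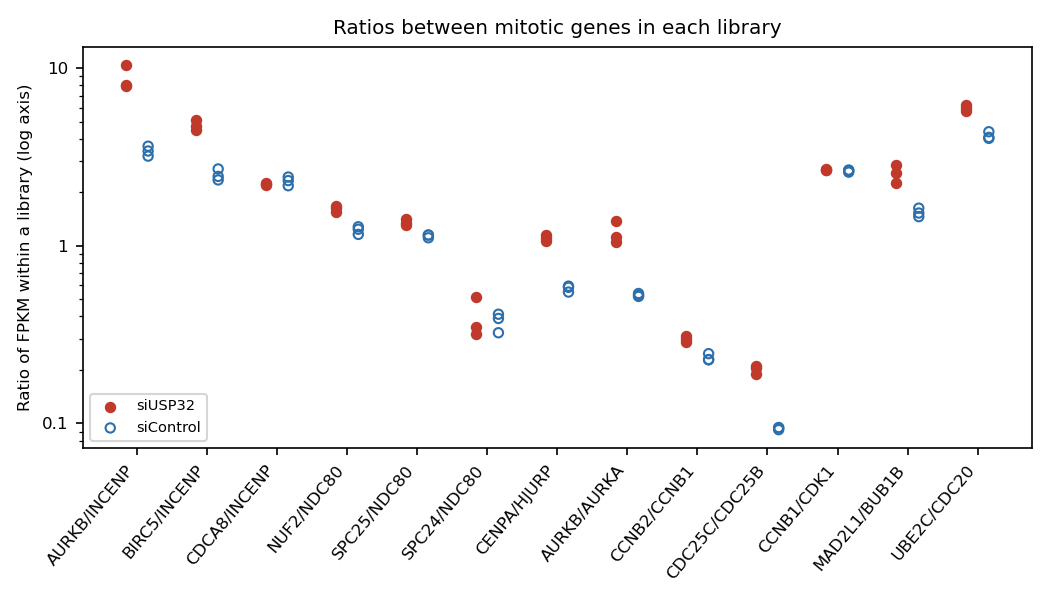
Ratio of the FPKM of pairs of mitotic genes within each library (vertical log axis), with siUSP32 libraries as filled red points left of siControl libraries as open blue points. CENPA/HJURP, AURKB/AURKA and CDC25C/CDC25B have separate groups, while CCNB1/CDK1, CDCA8/INCENP and SPC24/NDC80 overlap.

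How many of the genes were called each way changed with the scaling. With libraries rescaled to TPM, 8 were higher and 23 lower, against a background of 14.3% of tested genes higher and 62.1% lower. The members' median was then −0.27, beside −0.39 for all genes tested. Median-ratio scaling moved the counts the other way, to 24 higher and 9 lower, against 40.9% and 34.7% of tested genes, with medians of 0.23 for the members and 0.06 for all genes. After quantile normalization 13 were higher and 11 lower, against 43.8% and 30.0% of tested genes, with medians of 0.02 for the members and 0.10 for all genes. After a correction for transcript length, 19 were higher and 10 lower, against 35.1% and 35.1% of the 11965 genes with a length. With the median coding transcript for length 23 were higher and 7 lower, against 35.7% and 35.2% of 11961 genes. The members called lower on TPM were 54.8% of the 42, and those called higher after quantile normalization 31.0%. Neither gap to the background was tested.

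**Figure D3:**
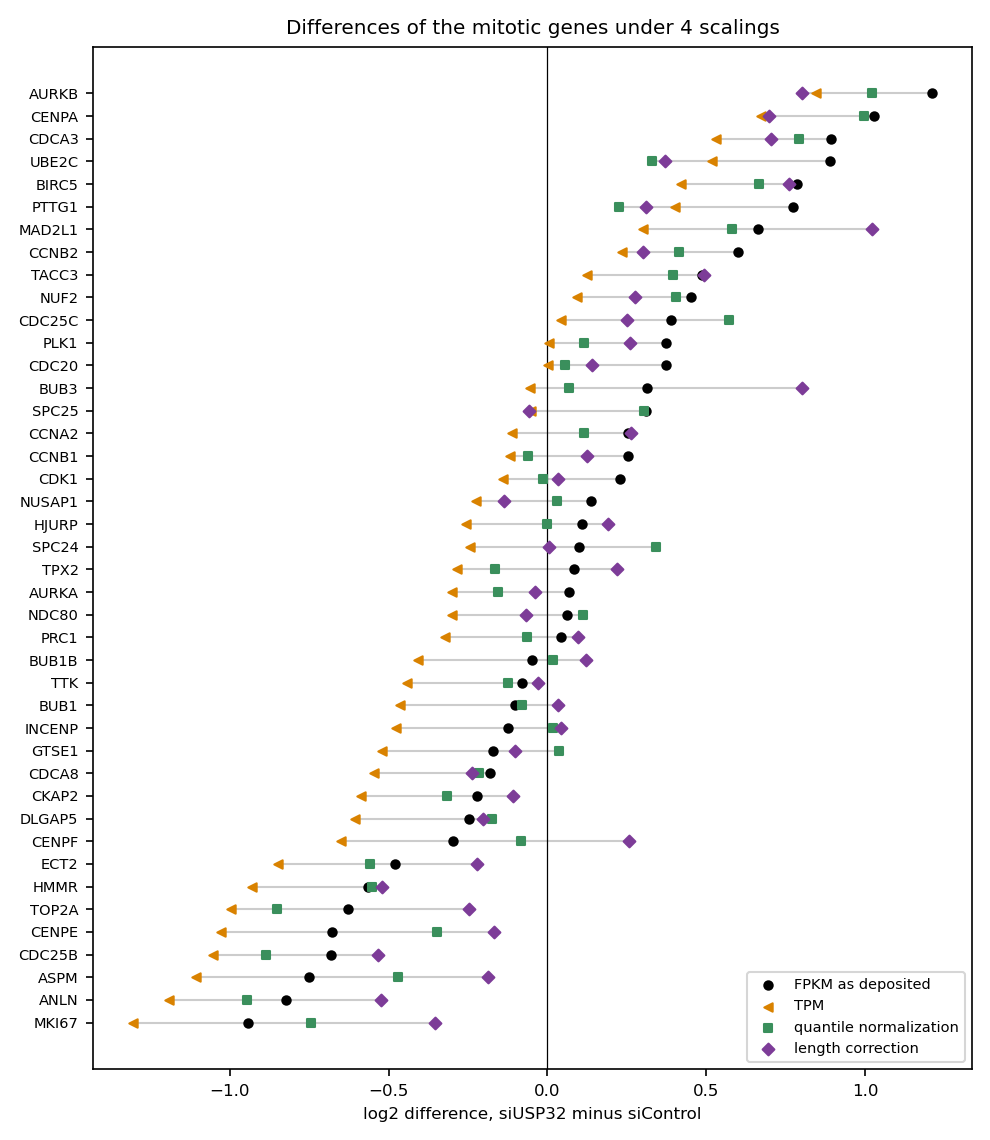
Log2 difference, siUSP32 minus siControl (horizontal axis), of each mitotic gene under 4 scalings: FPKM as deposited (black circles), TPM (orange triangles), quantile normalization (green squares) and length correction (purple diamonds). Genes at the top and bottom keep their side of 0 under each, and those in the middle, such as CDK1, cross it.

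Longer transcripts had lower differences, among the mitotic genes and among all genes. Across the 42 genes the log2 difference and log2 transcript length had a Pearson r of −0.73 and a Spearman rho of −0.74, and across 11965 tested genes −0.45 and −0.52. These are across genes measured in the same 6 libraries, which are not independent replicates. Of the 14 shortest members (850 to 2172 bases), 12 rose and 0 fell, with a median log2 difference of 0.42. All tested genes of those lengths had a median of 0.32, with 60.5% higher. Of the 14 longest members (3497 to 12678 bases), 2 rose, MAD2L1 and BUB3, and 8 fell, with a median of −0.39. All tested genes of those lengths had a median of −0.35, with 62.6% lower. After length correction the members' medians were 0.26 in the shortest group, −0.01 in the middle group and −0.07 in the longest. The part of transcript length in any single difference was not tested.

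**Figure D4:**
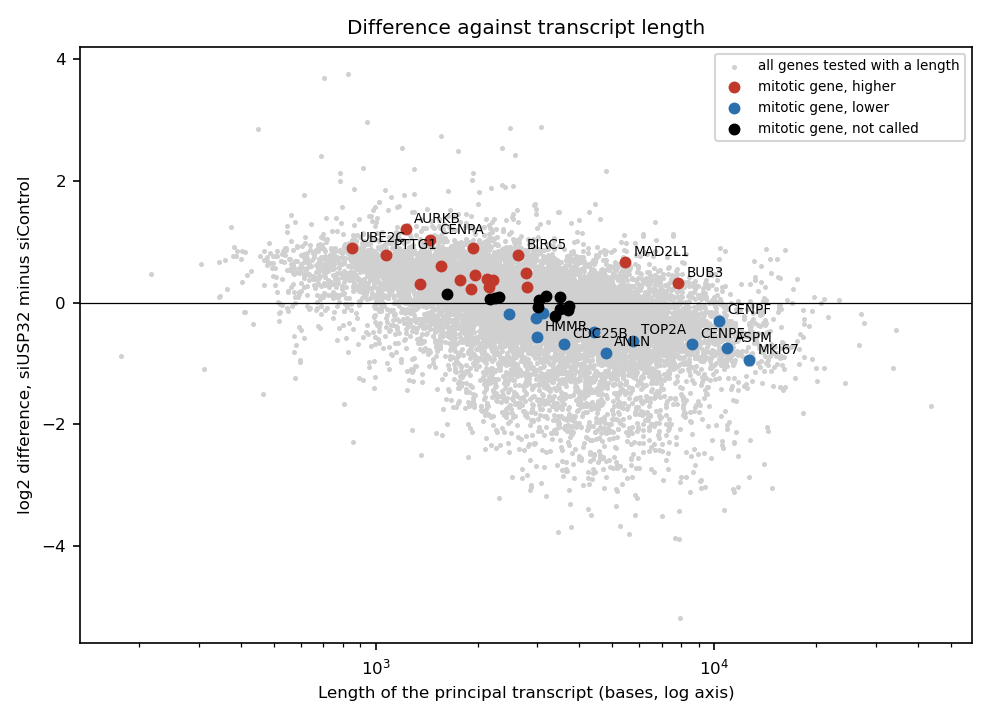
Log2 difference, siUSP32 minus siControl (vertical axis), against the length of the principal transcript in bases (log axis), for all tested genes with a length (grey) and the mitotic genes (red higher, blue lower, black not called). Short members such as UBE2C and AURKB lie above 0 and long ones such as MKI67 and ASPM below, along the slope of the grey cloud, with MAD2L1 and BUB3 near its upper edge.

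Other genes of mitosis also went in both directions. Of 127 further genes of kinetochores, the anaphase-promoting complex and cohesin, condensin, spindle poles and mitotic entry and exit, 49 were higher, 40 lower and 38 not called, with a median log2 difference of 0.03. These are 38.6% and 31.5%, beside 33.3% and 41.3% of all tested genes. On TPM 21 were higher (16.5%) and 72 lower (56.7%), beside 14.3% and 62.1% of all tested genes. After median-ratio scaling 60 were higher (47.2%) and 33 lower (26.0%), beside 40.9% and 34.7%. The gaps were not tested. In the values as deposited, 11 of 29 genes of the anaphase-promoting complex and cohesin list were higher and 10 lower. UBE2S, which lengthens the ubiquitin chains that UBE2C starts, averaged 183 ± 31.4 FPKM in siUSP32 libraries and 65.2 ± 1.22 FPKM in siControl libraries, 2.80-fold higher (log2 difference 1.46, limma adjusted p = 1.72e-06; 1.09 on TPM). NIPBL, which loads cohesin, fell to 8.56 ± 0.869 FPKM in siUSP32 libraries, against 16.3 ± 0.571 FPKM in siControl libraries (log2 difference −0.86; −0.31 after length correction). Among 36 other kinetochore genes, 19 were higher and 7 lower. CENPH, of the inner kinetochore, averaged 82.3 ± 2.15 FPKM in siUSP32 libraries and 43.0 ± 1.88 FPKM in siControl libraries (log2 difference 0.92). KNL1, the outer kinetochore scaffold that recruits BUB1 and BUB3, averaged 2.54 ± 0.466 FPKM in siUSP32 libraries and 4.66 ± 0.0436 FPKM in siControl libraries (log2 difference −0.69; −0.15 after length correction).

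Among 34 spindle pole and centrosome genes, 11 were higher and 13 lower in the values as deposited, shares close to those of all tested genes. After length correction 18 were higher (52.9%) and 6 lower (17.65%), beside 35.1% and 35.1% of all genes with a length. These gaps were not tested. TROAP, which is needed for bipolar spindles, averaged 107 ± 12.2 FPKM in siUSP32 libraries and 39.7 ± 2.52 FPKM in siControl libraries, 2.70-fold higher (log2 difference 1.41, limma adjusted p = 5.45e-07). PCNT, pericentrin, the centrosome scaffold, averaged 1.80 ± 0.110 FPKM in siUSP32 libraries and 4.05 ± 0.165 FPKM in siControl libraries (log2 difference −0.85; −0.30 after length correction). Of 8 condensin genes, 2 were higher and 3 lower, and SMC4, a core subunit, averaged 42.1 ± 4.21 FPKM in siUSP32 libraries and 64.8 ± 2.83 FPKM in siControl libraries (log2 difference −0.61). Of 20 entry and exit regulators, 6 were higher and 7 lower, again close to all tested genes in the values as deposited. After length correction 8 were higher (40%) and 4 lower (20%). The related phosphatase inhibitors ENSA and ARPP19 went opposite ways: ENSA averaged 181 ± 8.70 FPKM in siUSP32 libraries and 99.5 ± 3.62 FPKM in siControl libraries, and ARPP19 averaged 24.9 ± 1.57 FPKM in siUSP32 libraries and 35.7 ± 0.915 FPKM in siControl libraries.

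Kinesins and replication genes were set beside the 42. Of 12 mitotic kinesins, 3 were higher (25%) and 4 lower (33.3%), with a median log2 difference of 0.02. On TPM 0 were higher and 8 lower (66.7%), beside 14.3% and 62.1% of all tested genes. Of 40 genes of DNA replication and G1/S, 23 were higher (57.5%) and 6 lower (15%), with a median of 0.23. These compare with 18 and 12 of the 42 mitotic genes and a median of 0.09, and with 33.3% and 41.3% of all tested genes. The gaps between lists were not tested. On TPM the replication list had 4 higher and 15 lower, with a median of −0.13. The order of the lists changed with the processing. After length correction the medians were 0.23 for kinesins, 0.07 for the 42 genes and 0.17 for replication genes, and after quantile normalization 0.13, 0.02 and 0.30.

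**Figure D5:**
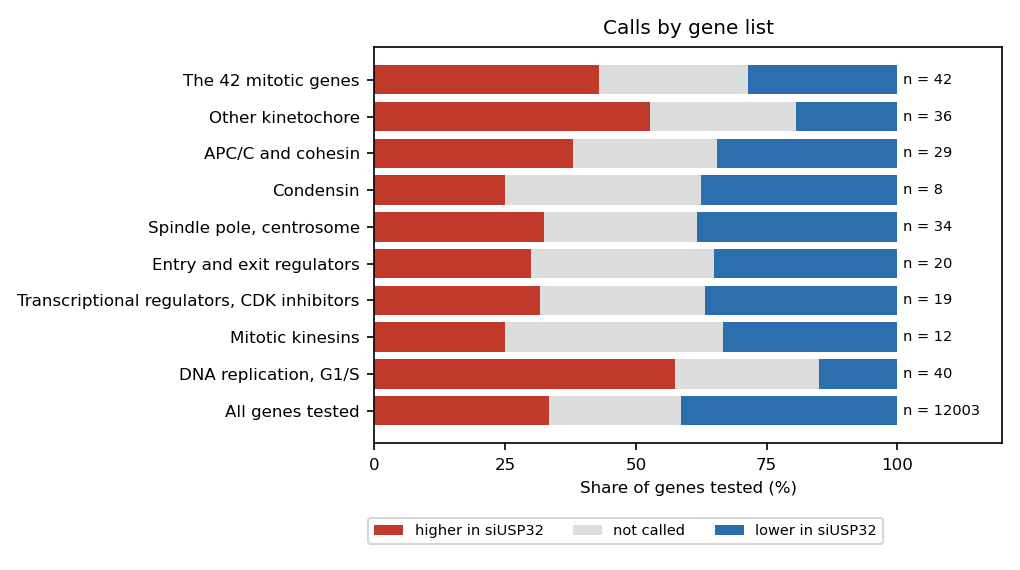
Share of tested genes (percent, horizontal axis) called higher in siUSP32 (red), not called (grey) and lower in siUSP32 (blue) by limma at an adjusted p under 0.05, for the 42 mitotic genes, the related lists and all 12003 tested genes. The mitotic genes have 42.9% higher and 28.6% lower, the replication and G1/S list has the longest red bar.

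Of 19 regulators of these genes, 6 were higher (31.6%), 7 lower (36.8%) and 6 not called, shares close to the 33.3% and 41.3% of all tested genes. On TPM 3 were higher (15.8%) and 14 lower (73.7%), beside 14.3% and 62.1% of all tested genes. The gaps were not tested. CDKN1A, the CDK inhibitor p21, had 111, 120 and 108 FPKM in siUSP32 libraries, against 69.7, 65.2 and 64.3 FPKM in siControl libraries, 1.70-fold higher (log2 difference 0.76 ± 0.06 SE, limma adjusted p = 3.17e-06; 0.39 on TPM). CDKN1B, p27, averaged 9.52 ± 0.436 FPKM in siUSP32 libraries and 11.7 ± 0.50 FPKM in siControl libraries (log2 difference −0.27, limma adjusted p = 0.00367). After quantile normalization its difference was −0.03 and not called. E2F4, which represses cell cycle genes in quiescent cells, averaged 57.7 ± 3.49 FPKM in siUSP32 libraries and 38.0 ± 0.315 FPKM in siControl libraries, a log2 difference of 0.59, and the activator E2F1 averaged 22.04 ± 2.28 FPKM in siUSP32 libraries and 14.3 ± 0.872 FPKM in siControl libraries. MYBL2, B-Myb, which activates G2/M genes, differed by 0.41 on the log2 scale (limma adjusted p = 1.68e-04) and by 0.04 on TPM. FOXM1, the other activator of G2/M genes, averaged 27.0 ± 0.316 FPKM in siUSP32 libraries and 29.3 ± 0.804 FPKM in siControl libraries, without overlap of the groups. It was not called (log2 difference −0.11, 95% interval −0.22 to 0.0007, limma adjusted p = 0.0668), but passed as lower on TPM, at −0.47. The pocket proteins RB1, RBL1 and RBL2, which hold E2F targets down, fell by 0.43, 0.48 and 0.35 on the log2 scale, and the length-corrected differences were −0.13, −0.10 and −0.04. Of the CCAAT-binding NF-Y subunits, NFYA fell by 0.45, NFYB was not called and NFYC differed by 0.12, or −0.24 on TPM.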

How the data were processed

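The deposited values are FPKM, which the authors computed per gene, per the file headers, with 1 table per library and 17646 genes in each. Per the submitters' processing notes, GRCh38.p13 was the genome build, and per the labels' protocols RNA was taken up in Trizol. For the aligner, the counting tool, the annotation, the transcript length, strand and shared reads, the choice is not given in the sources used here. Libraries were grouped by their labels. The mitotic genes, the other lists and the naming rule were chosen with earlier results of these data known. The rule named all 42 members, all regulators, and in each other list the 2 rises and 2 falls of smallest adjusted p at most.

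The scale was log2(FPKM + 1), which understates differences of low genes, and 12003 genes had the required mean of at least 1 FPKM across the 6 libraries. Folds are ratios of mean FPKM. The test was limma 3.58.1 (R 4.3.3), 2-sided, with a trend of variance on level and without covariates. The call threshold was a Benjamini-Hochberg adjusted p of 0.05 over all tested genes, and 95% intervals come from that fit. The exact permutation test was 2-sided, on log2 values. The fit was tested on simulated data. Alternatives were a pseudocount of 0.1, no filter, a minimum of 5 FPKM, TPM (each library rescaled to the same FPKM sum), median-ratio scaling, quantile normalization, no trend, array weights, the replicate block, leaving out each library, and a loess correction (span 0.5) for the length of the GENCODE 29 principal transcript. A correction for the median length of the coding transcripts was added after seeing the data. Promoters are RefSeq's. Counting intervals were not computed, as depth is unknown.

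Some members overlap another listed gene in GENCODE 29. Besides overlaps given with the results, ANLN shares 320 bases with KIAA0895, CCNA2 578 with EXOSC9, PLK1 42 with ERN2 and HJURP 8 with MROH2A, all on opposite strands. Tables and figures were made with Python 3.11.15, pandas 2.3.3, scipy 1.17.1 and matplotlib 3.10.9. The labels do not say that same-numbered libraries are pairs, so the numbers were not taken as pairs. Same-numbered libraries deviated from their group means with correlations of −0.08, 0.07 and 0.12, and differently numbered ones with −0.16 to 0.10. Deviations from a group's own mean depend on each other, so these values cannot decide the pairing.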

Additional observations from a re-analysis of the deposited data

How the results depend on the processing

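With TPM, 8 of the 42 mitotic genes were higher and 23 lower in siUSP32. Beside these stood 1716 (14.3%) and 7453 (62.1%) of all tested genes, and 21 and 72 of the 127 other mitotic genes. Length correction left 24 of those 127 lower (18.9%), beside 35.1% of all genes with a length. With the median coding transcript 23 of the 42 were higher and 7 lower, beside 35.7% and 35.2% of all genes. Median-ratio scaling gave 24 of the 42 higher and 9 lower, beside 40.9% and 34.7%. A minimum of 5 FPKM left 3068 of 8645 tested genes lower (35.5%) and 3577 higher (41.4%). With the main filter the shares were 41.3% lower and 33.3% higher, so the balance of the background changed along with the number of genes. The median log2 difference of all tested genes was 0.045 with the stricter filter and −0.06 with the main filter. Leaving out each library in turn gave 18 to 22 mitotic genes higher and 9 to 13 lower, beside 30.8% to 35.6% and 38.0% to 42.4% of all tested genes. With the replicate block 18 mitotic genes were higher and 12 lower, beside 33.5% and 41.5% of all tested genes. GTSE1 and CKAP2 were the members whose calls changed with the block. Directions reversed as log2 differences. On TPM these were −0.14 for CDK1, −0.12 for CCNB1, −0.11 for CCNA2, −0.23 for NUSAP1, −0.28 for TPX2, −0.30 for NDC80 and for AURKA, −0.0517 for SPC25, −0.0540 for BUB3, −0.26 for HJURP, −0.32 for PRC1, −0.13 for NCAPG2, −0.31 for LIN9, −0.24 for NFYC and −0.0356 for KIF2C. With quantile normalization they were −0.0146 for CDK1, −0.0604 for CCNB1, −0.16 for AURKA and 0.0355 for GTSE1. With length correction they were −0.0565 for SPC25, 0.26 for CENPF, 0.0091 for CIT, −0.0360 for LIN37, 0.0822 for LIN54, −0.0602 for NFYC and 0.46 for RBBP4. With the median coding transcript they were 0.14 for CENPF, 0.21 for BUB1B, 0.11 for TTK, 0.16 for INCENP, 0.0719 for NCAPG, 0.0200 for NUMA1, 0.0886 for CIT, −0.0022 for NFYC and 0.0433 for RBL2. The causes were not tested. The number of libraries, 3 a group, and the unknown depth limit how small a difference could be seen.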

Other observations

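Mitotic kinesins, the motors that slide and shorten spindle microtubules, also went both ways. KIF22, which pushes chromosome arms away from the poles, averaged 89.3 ± 6.92 FPKM in siUSP32 libraries and 63.9 ± 0.689 FPKM in siControl libraries (log2 difference 0.47, limma adjusted p = 9.07e-05; 0.11 on TPM). KIF2C, a microtubule depolymerase, differed by 0.33, and by −0.04 on TPM. KIF11, the motor that separates spindle poles, averaged 11.6 ± 1.31 FPKM in siUSP32 libraries and 16.8 ± 0.267 FPKM in siControl libraries (log2 difference −0.50), and KIF18B, a regulator of microtubule length, differed by −0.36. Among replication and G1/S genes, ORC6 and MCM7, which help to license replication origins, differed by 0.73 and 0.58, and UHRF1, which maintains DNA methylation, by −0.78. Cyclin E2 (CCNE2) averaged 2.45 ± 0.802 FPKM in siUSP32 libraries and 6.10 ± 0.517 FPKM in siControl libraries, a log2 difference of −1.06 (limma adjusted p = 1.48e-04).

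Further genes of mitosis that rose by the same limma fit, in log2 differences, were CENPN of the inner kinetochore (0.72), ANAPC11, the RING subunit of the anaphase-promoting complex (0.65), NCAPH2 and NCAPG2 of condensin II (0.61 and 0.23), the spindle protein PSRC1 (0.88) and the CDK subunit CKS1B (0.85). NCAPG2 differed by −0.13 on TPM. Those that fell were SPDL1, which recruits dynein to kinetochores (−0.46), the cohesin subunit STAG1 (−0.57), NCAPG of condensin I (−0.30), the spindle pole protein NUMA1 (−0.51) and citron kinase, CIT (−0.51). After length correction NCAPG differed by −0.01, NUMA1 by −0.04 and CIT by 0.009. Of the regulators not yet given, LIN37 of the MuvB core was higher (0.40; −0.04 after length correction), and LIN54 and the CDK inhibitor CDKN2C were lower (−0.32 and −0.36). Neither LIN54 nor CDKN2C was called after quantile normalization (−0.02 and −0.17). CDKN2C was also not called after median-ratio scaling (−0.23). LIN9, LIN52, RBBP4 and TFDP1 were not called.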
